A study of Mus musculus with 22 samples.

Results

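The cytosolic ribosomal protein genes encode the proteins of the large subunit (gene names in Rpl) and of the small subunit (Rps), which together with ribosomal RNA build the ribosome that makes all proteins of the cell outside mitochondria. Their promoters are open in every cell type, and a hepatocyte, which secretes most plasma proteins, needs a large supply of ribosomes. Many of these genes start transcription at a C within a run of pyrimidines, a feature that ties translation of their mRNAs to growth signals through mTOR, and many carry small nucleolar RNA genes in their introns. Members were chosen by name (Rpl or Rps with a number and at most 1 letter a, l or x, together with Rplp0, Rplp1, Rplp2 and Rpsa) from the table of open chromatin peaks, using the peaks credited to each gene within 50 kb of its transcription start. That gave 74 genes of 15686 and 173 peaks of 68827, after 1 of 75 matching genes, whose peaks all lay farther away, was left out: 44 genes of the large subunit and 30 of the small subunit.

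The assay was ATAC-seq (a transposase inserts adapters where DNA is open), run on hepatocyte nuclei immunoprecipitated from livers of male HEP-INTACT mice. The animals were fed 2 diets that produce fatty liver with inflammation: the FPC diet for 20 weeks or the CDAHFD for 7 weeks. There were 6 groups: advanced FPC (3 libraries), mild FPC (4), FPC control (4), advanced CDAHFD (3), mild CDAHFD (4) and CDAHFD control (4). The controls of each diet received low fat diet over an equal period. The submitters sorted the fed mice into mild and advanced by liver histology, with fibrosis in the advanced livers. Neither the mice's age nor the promoter driving the nuclear tag is stated in the sources used. Each library carries a number of its own in its label and is taken here as a separate mouse, so p-values measure the spread between these libraries. In such pools of nuclei, fewer nuclei with an open site and a less open site in each nucleus cannot be told apart.

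The 22 libraries held 3785070 to 9328960 counts in peaks, with 5971490 to 7135520 in advanced FPC and 3785070 to 6039070 in FPC control libraries. The share of a library that lay in peaks within 1 kb of any start was higher in mild and advanced livers than in control livers: it was 40.6% to 42.1% in FPC control, 42.5% to 44.4% in mild FPC and 45.8% to 46.8% in advanced FPC livers. It was 40.6% to 41.7% in CDAHFD control, 42.5% to 44.6% in mild CDAHFD and 43.9% to 46.2% in advanced CDAHFD livers. Marker genes of hepatocytes, 10 of 10 measured, summed to 1664 to 1890.0 CPM (counts scaled to library size) in advanced FPC against 2156 to 2387 CPM in FPC control livers. In advanced CDAHFD livers the sum was 1821 to 1971 CPM, against 2107 to 2314 CPM in CDAHFD control livers. Of 8 cholangiocyte markers 7 had a peak, and they summed to 360.0 to 460.2 CPM in advanced FPC against 202 to 227 CPM in FPC control livers. The same markers had 309 to 339 CPM in advanced CDAHFD against 209.6 to 256 CPM in CDAHFD control livers. Of 9 stellate cell markers 2 had a credited peak (not Lrat or Des), at 47.4 to 65.5 CPM in advanced FPC against 26.6 to 43.6 CPM in FPC control and 45.1 to 57.9 CPM in advanced CDAHFD against 37.5 to 50.3 CPM in CDAHFD control livers. Of 9 macrophage markers 2 had one (not Clec4f or Cd68), at 18.5 to 21.7 CPM in advanced FPC against 10.6 to 16.3 CPM in FPC control and 19.8 to 21.5 CPM in advanced CDAHFD against 11.1 to 15.2 CPM in CDAHFD control livers. For 6 of 8 endothelial markers the ranges were 203 to 212 CPM in advanced FPC against 177 to 189 CPM in FPC control and 209 to 242 CPM in advanced CDAHFD against 209 to 237 CPM in CDAHFD control livers. For 3 of 9 lymphocyte markers (not Cd3e) they were 46.0 to 60.7 CPM in advanced FPC against 97.0 to 109 CPM in FPC control and 48.4 to 58.0 CPM in advanced CDAHFD against 102 to 121 CPM in CDAHFD control livers. A peak within 1 kb of the start was present at 9 of the 10 hepatocyte, 6 of the 7 cholangiocyte and 1 of the 2 stellate cell markers measured. It was present at 0 of the measured macrophage, endothelial and lymphocyte markers. The sums of those 3 types hold only distant peaks credited to the genes, so they are no measure of cell content. The part of the shifts in promoter share and marker sums in the results that follow was not tested.

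At the level of a gene's summed peaks, ribosomal protein genes more often gained than lost accessibility in advanced disease, and the gains were small. In advanced FPC livers 35 of 74 members were higher than in FPC control and 10 were lower, where 32.2% of all genes were higher and 28.8% lower (edgeR quasi-likelihood test, Benjamini-Hochberg adjusted p under 0.05 over all 15686 genes). In advanced CDAHFD livers 31 were higher and 9 lower, where 30.1% of all genes were higher and 27.9% lower. The median log2 fold change of the members was 0.19 in FPC and 0.17 in CDAHFD, beside 0.03 and 0.01 for all genes. Of the 40 members with start peaks only, 21 were higher and 1 lower in FPC and 20 higher and 1 lower in CDAHFD. Of the 30 with start and distant peaks, 13 were higher and 7 lower, and 11 higher and 7 lower. The matching share over all genes with start peaks only was not computed. Taken singly, start peaks of all genes (within 1 kb of a start) were also more often higher than lower. In FPC 37.7% of them were higher and 12.5% lower, and in CDAHFD 31.2% and 13.8%. 1 member, Rps4l, changed by more than 2-fold in either diet, and 10 called members in each diet passed 1.5-fold. By subunit, 23 of 44 large-subunit genes were higher and 5 lower in advanced FPC livers, and 12 of 30 small-subunit genes were higher and 5 lower. In advanced CDAHFD livers the counts were 21 and 4 of 44 and 10 and 5 of 30.

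The diets have separate control groups, so their calls can be set side by side. Of the 35 members higher in advanced FPC and the 31 higher in advanced CDAHFD livers, 26 were in both, which is 74.3% of the FPC list and 83.9% of the CDAHFD list. Over all genes the genes higher in both were 73.6% of the FPC list and 78.8% of the CDAHFD list, so the members' overlap is near the background. Of the 10 lower in FPC and the 9 lower in CDAHFD, 7 were in both, which is 70% of the FPC list and 77.8% of the CDAHFD list. Over all genes the genes lower in both were 74.7% and 77.2%, so this overlap is near the background too. No member was called in opposite directions, as were 82 of all genes. A further 22 were called in neither diet.

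**Figure D1:**
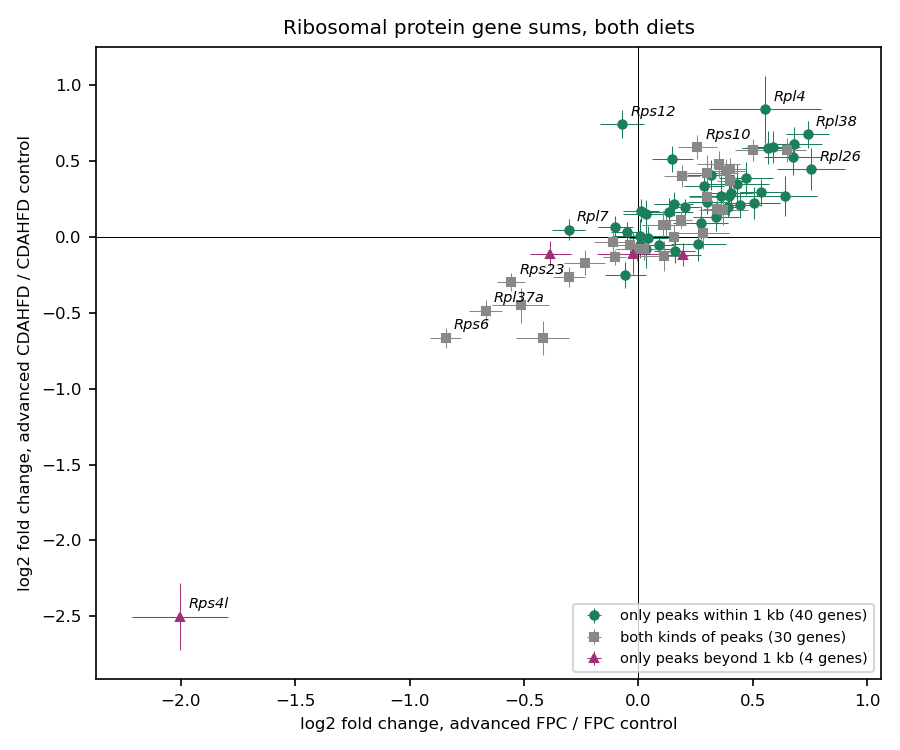
Change in summed accessibility of the 74 ribosomal protein genes in advanced FPC (x axis) and advanced CDAHFD livers (y axis), each as log2 fold change over its own control with the standard error as bars; colour and shape give the kind of peaks a gene's sum holds. Rps4l lies alone at -2.00 and -2.50, Rps6 and Rpl37a also lie low in both, and Rps12 is the point that is high in CDAHFD alone.

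Peaks at the start were mostly higher in advanced livers where they were called, and more often so than start peaks of all genes. Peaks far from it had medians and shares of lower calls close to those of all genes. Of the 173 peaks, each 200 bp wide, 101 lay within 1 kb of the start and 72 farther away. Of the 101 start peaks, 57 were higher and 6 lower in advanced FPC livers, where 37.7% and 12.5% of the 20071 start peaks of all genes were; 49 were higher and 4 lower in advanced CDAHFD livers, where 31.2% and 13.8% of all were. Their median log2 fold change was 0.35 in FPC and 0.27 in CDAHFD, beside 0.18 and 0.10 for start peaks of all genes. Of the 72 distant peaks, 11 were higher and 27 lower in advanced FPC livers (23.4% and 32.7% of 36706 such peaks of all genes), and 19 were higher and 26 lower in advanced CDAHFD livers (25.4% and 32.7%). The distant peaks of members had medians of -0.13 in FPC and -0.07 in CDAHFD, beside -0.14 and -0.11 for all genes. Higher calls made up 15.3% of the members' distant peaks in FPC and 26.4% in CDAHFD, and lower calls 37.5% and 36.1%.

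**Figure D2:**
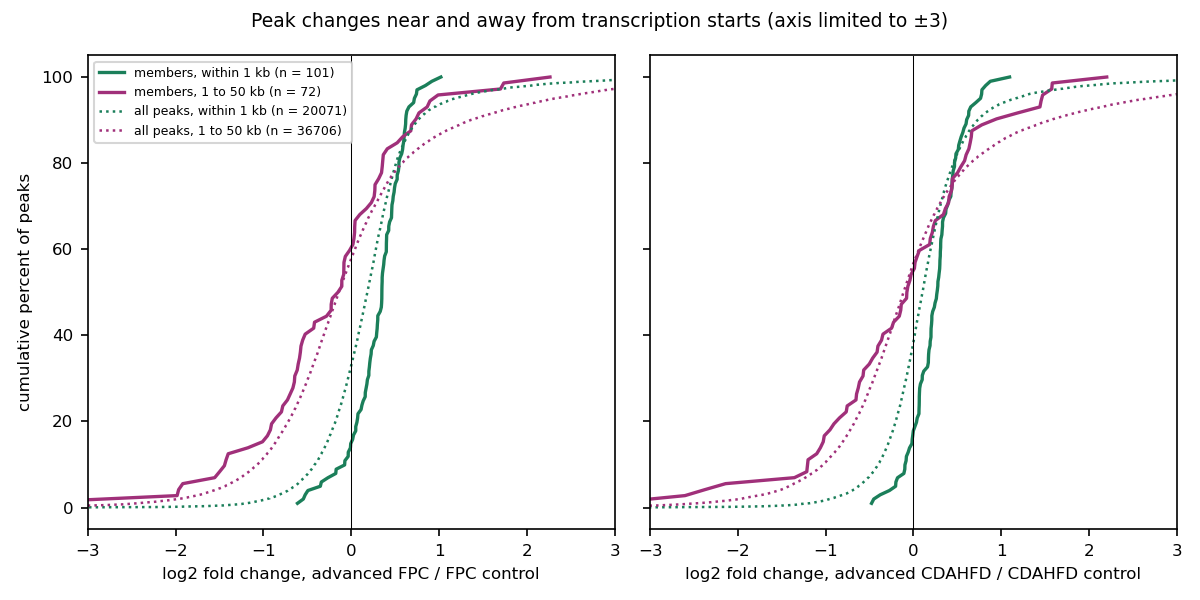
Cumulative percent of peaks (y axis) by log2 fold change over control (x axis) for advanced FPC (left) and advanced CDAHFD (right); solid lines are peaks of ribosomal protein genes, dotted lines peaks of all genes, green within 1 kb of a start and purple from 1 to 50 kb. Over most of its course the solid green line lies to the right of the dotted green one (medians 0.35 against 0.18 in FPC and 0.27 against 0.10 in CDAHFD), while the purple lines run close together near their middle.

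Start peaks of all genes took a larger share of the advanced libraries, so members were also tested on their start peaks alone, scaled on the start sums of all genes. Then 25 of 70 members with a start peak were higher and 8 lower in each diet, where of all 11758 genes so tested 26% were higher and 25.6% lower in FPC and 26.5% higher and 25.2% lower in CDAHFD. The members had median log2 fold changes of 0.17 in FPC and 0.12 in CDAHFD, beside 0.02 and -0.00 for all genes. The summed start peaks of the members amounted to 2591 to 2870.0 CPM in advanced FPC against 2169 to 2303 CPM in FPC control livers. Advanced CDAHFD livers had 2592 to 2824 CPM, against 2189 to 2337 CPM in CDAHFD control livers. The distant peaks summed to 612 to 624 CPM in advanced FPC against 727 to 749 CPM in FPC control livers. They were 626 to 655 CPM in advanced CDAHFD against 713 to 739 CPM in CDAHFD control livers. Neither sum overlapped between advanced and control in either diet.

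**Figure D3:**
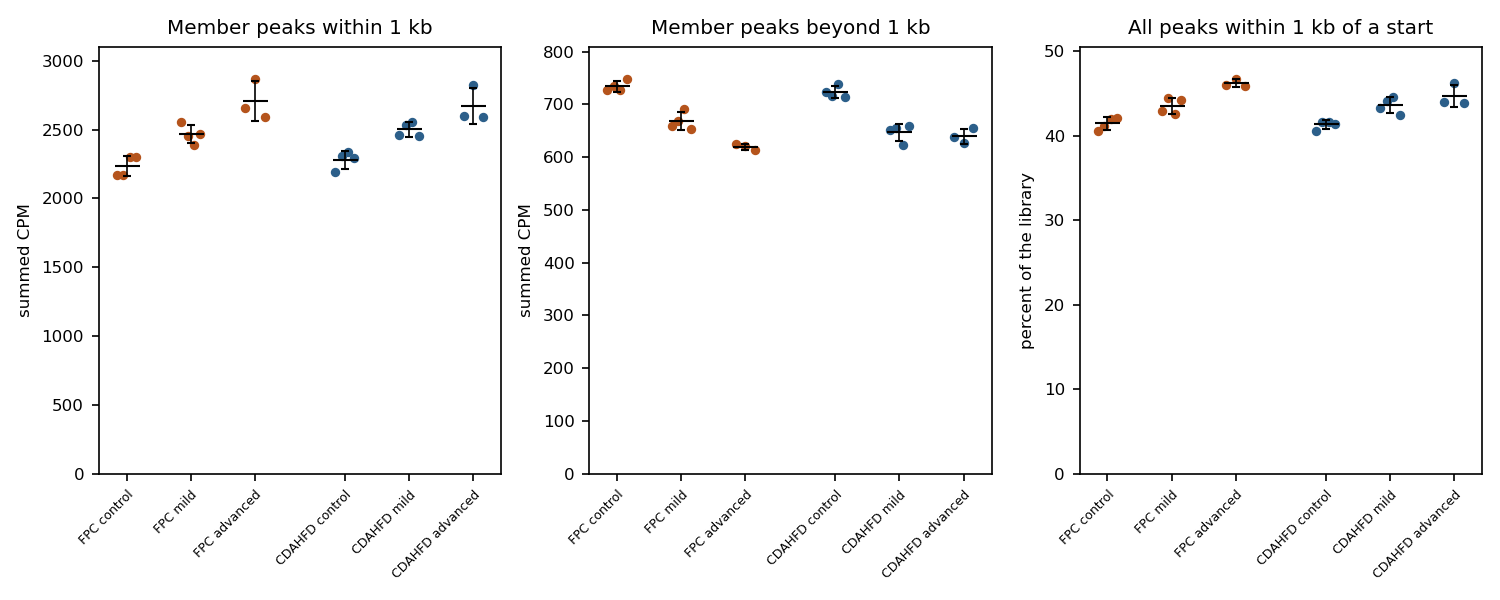
Sums per library of the members' start peaks (left, CPM), of their distant peaks (middle, CPM) and of the start peaks of all genes (right, percent of the library), by group in the order control, mild, advanced for each diet; points are libraries, lines means and bars SD. Start sums lie lowest in control and highest in advanced livers, distant sums lie highest in control, and the right panel moves the same way as the left.

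The strongest start peak of the 70 members had a median of 25.7 CPM over all libraries, against 23.2 CPM for 11758 genes with a start peak. Of the 70, 40 lay above that median, 7 were in the top decile of genes and 1 was in the bottom decile. The highest were Rpl34 at 64.1 CPM, Rps21 at 63.4 CPM and Rpl27a at 60.9 CPM, and the lowest were Rpl4 at 3.96 CPM, Rpl19 at 7.74 CPM and Rpl32 at 9.18 CPM. The 4 members with no start peak were Rps18, Rps28, Rpl32l and the pseudogene Rps4l. Of the members, 25 had 1 peak and 49 more.

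The promoters of 5 members are shown because the results turn on them: Rpl38 and Rpl10a, which gained in both diets, Rps12, whose change differed between diets, Rpl4, the least open start, and Rps6, whose distant peaks fell while its start peak did not. They were chosen after their values were seen. Each runs 5′ to 3′ from 250 bases before the start, with the start at base 251, on build GRCm38.p6 (mm10), from RefSeq. Capitals mark the ETS core CCGGAA on either strand, the YY1 core CCATNTT on either strand, and a run of at least 5 pyrimidines that opens with C within 5 bases of the start. Rpl38 lies at chr11:114668330-114668629 on the plus strand, Rpl10a at chr17:28328221-28328520 on the plus strand, Rps12 at chr10:23787160-23787459 on the minus strand, Rpl4 at chr9:64173137-64173436 on the plus strand and Rps6 at chr4:86857318-86857617 on the minus strand.
Rpl38: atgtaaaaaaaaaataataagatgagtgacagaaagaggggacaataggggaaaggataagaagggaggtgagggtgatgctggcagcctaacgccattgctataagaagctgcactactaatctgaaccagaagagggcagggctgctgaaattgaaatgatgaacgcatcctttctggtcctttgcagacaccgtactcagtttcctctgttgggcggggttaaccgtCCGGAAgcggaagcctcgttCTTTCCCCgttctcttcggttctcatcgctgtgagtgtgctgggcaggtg
Rpl10a: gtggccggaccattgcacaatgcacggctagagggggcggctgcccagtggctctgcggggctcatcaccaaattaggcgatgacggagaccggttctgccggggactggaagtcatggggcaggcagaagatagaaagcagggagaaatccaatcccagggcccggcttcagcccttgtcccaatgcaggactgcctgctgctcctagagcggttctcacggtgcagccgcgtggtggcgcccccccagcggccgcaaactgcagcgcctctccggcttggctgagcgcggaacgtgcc
Rps12: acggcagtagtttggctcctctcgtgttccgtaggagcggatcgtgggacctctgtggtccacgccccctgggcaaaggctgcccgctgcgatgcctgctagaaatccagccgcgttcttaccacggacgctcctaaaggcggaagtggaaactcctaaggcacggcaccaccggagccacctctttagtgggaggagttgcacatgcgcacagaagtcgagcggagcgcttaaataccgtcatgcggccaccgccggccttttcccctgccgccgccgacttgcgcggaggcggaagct
Rpl4: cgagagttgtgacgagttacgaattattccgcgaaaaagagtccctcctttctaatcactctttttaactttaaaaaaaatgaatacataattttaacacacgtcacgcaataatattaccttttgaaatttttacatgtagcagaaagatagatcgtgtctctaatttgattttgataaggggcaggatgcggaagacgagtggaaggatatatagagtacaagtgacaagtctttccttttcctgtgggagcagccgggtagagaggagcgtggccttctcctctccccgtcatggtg
Rps6: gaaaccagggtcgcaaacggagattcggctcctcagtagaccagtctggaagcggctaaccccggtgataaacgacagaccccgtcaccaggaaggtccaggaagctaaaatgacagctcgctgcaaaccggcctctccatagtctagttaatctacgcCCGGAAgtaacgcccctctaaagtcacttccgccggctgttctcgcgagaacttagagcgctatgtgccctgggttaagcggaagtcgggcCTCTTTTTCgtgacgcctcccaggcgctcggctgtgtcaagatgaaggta

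Rpl38 holds the ETS core 20 bases before the start and an 8-base pyrimidine run at the start, and Rps6 holds the ETS core 91 bases before the start and a 9-base run at the start; the other 3 windows hold none of the 3 motifs. Promoter sequence was matched for 53 of the 74 members, among them Rps18, Rps28 and Rpl32l, which have no start peak. For members with a start peak the listed start nearest to it was used. For the matched genes with a start peak the first listed start was used, so the choice of start differs between the sets. CCGGAA was in 43.4% of the 53, against 28.8% of 9156 genes with a start peak and 14.9% of all 32851 promoters. CCATNTT was in 28.3% of members, 14.9% of genes with a start peak and 16.1% of all promoters, and the pyrimidine run was in 41.5%, 20.0% and 18.3%. The SP1 core GGGCGG was in 56.6%, 65.5% and 35.7%, the CREB core TGACGT in 18.9%, 12.1% and 7.51%, the E-box CACGTG in 9.43%, 10.9% and 7.15%, all on either strand, and TATAAA on the gene's strand in 9.43%, 4.27% and 8.32%. The searches may overlap one another, and a match describes letters only.

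The largest gain shared by the diets was at Rpl38, a large-subunit protein whose loss in mice changes translation of Hox mRNAs. Its sum was 35.0, 39.1 and 43.8 CPM in advanced FPC against 21.7, 26.0, 24.5 and 21.9 CPM in FPC control livers. In advanced CDAHFD livers it was 36.0, 40.4 and 37.5 CPM, against 22.5, 23.5, 25.3 and 23.2 CPM in CDAHFD control livers. Every advanced library lay above every control library of its diet. The log2 fold change was 0.74 ± 0.10 (SE; edgeR adjusted p = 3.6e-07) in FPC and 0.68 ± 0.09 (adjusted p = 4.24e-07) in CDAHFD. It was also higher in mild than in control livers, by 0.46 ± 0.09 in FPC and 0.55 ± 0.08 in CDAHFD. The peak over the start, chr11:114668458-114668658, centred 15 bp past it and overlapping the window printed above, averaged 23.2 CPM in advanced FPC against 12.3 CPM in FPC control livers and 21.2 CPM in advanced CDAHFD against 11.8 CPM in CDAHFD control livers, log2 fold changes of 0.92 ± 0.13 and 0.82 ± 0.13.

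Rpl10a, a protein of the mobile L1 stalk near the exit site for used tRNA, also gained in both diets. Its sum was 31.4, 31.9 and 32.8 CPM in advanced FPC against 16.9, 23.2, 22.5 and 16.9 CPM in FPC control livers. The advanced CDAHFD livers had 30.5, 34.7 and 26.4 CPM, against 17.9, 20.0, 23.1 and 18.4 CPM in CDAHFD control livers. The groups did not overlap in either diet, with log2 fold changes of 0.68 ± 0.12 (adjusted p = 4.15e-05) and 0.61 ± 0.11 (adjusted p = 6.33e-05). Its upstream start peak, chr17:28328131-28328331, centred 240 bp before the start, gained the most of any called member start peak in CDAHFD, 1.10 ± 0.20 on the log2 scale, at 7.35 CPM in advanced against 3.37 CPM in control livers.

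Other large-subunit members rose in both diets. They include Rpl3, which reaches toward the peptidyl transferase centre (0.59 ± 0.12 in FPC, 0.59 ± 0.11 in CDAHFD), Rpl23a, at the exit of the peptide tunnel (0.57 ± 0.11, 0.59 ± 0.11), Rpl21 (0.65 ± 0.09, 0.57 ± 0.08), Rpl6 (0.68 ± 0.13, 0.53 ± 0.12) and Rpl26 (0.76 ± 0.15, 0.45 ± 0.14). Rpl26 held the start peak with the largest gain in FPC, chr11:68901306-68901506, centred 160 bp before the start, at 12.5 CPM in advanced against 6.24 CPM in control livers, a log2 fold change of 1.02 ± 0.21. Rpl17 rose in advanced FPC livers by 0.64 ± 0.14 (adjusted p = 0.000336), while its value in advanced CDAHFD livers, 0.27 ± 0.13, missed the threshold (adjusted p = 0.0804); the difference between the diets was 0.37 ± 0.19 (adjusted p = 0.27). At Rpl4, which lines the peptide tunnel, the sum was 6.31, 5.60 and 5.41 CPM in advanced CDAHFD against 2.35, 2.98, 3.52 and 4.16 CPM in CDAHFD control livers, with no overlap and the largest log2 fold change of the CDAHFD comparison, 0.84 ± 0.22 (adjusted p = 0.00208). In advanced FPC livers it was 5.12, 5.63 and 5.16 CPM against 2.86, 2.20, 3.91 and 5.32 CPM in FPC control, which overlap (0.55 ± 0.25, adjusted p = 0.0533; 0.76 with adjusted p = 0.015 without FPC control replicate 4). As a peak, in the fit of all peaks, it had 0.62 ± 0.25 in FPC (adjusted p = 0.0389). It is the least open start of the members, and the authors' annotation names the neighbour Zwilch for this peak.

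The stalk that recruits elongation factors is built from Rplp0, its base, and the pair Rplp1 and Rplp2. Rplp0 was 125, 131 and 127 CPM in advanced FPC against 99.6, 96.9, 96.5 and 94.3 CPM in FPC control livers. Advanced CDAHFD livers had 109.7, 120.3 and 118 CPM, against 85.6, 83.2, 97.1 and 91.5 CPM in CDAHFD control livers. Its groups did not overlap, and it rose by 0.40 ± 0.06 (adjusted p = 1.27e-06) and 0.37 ± 0.05 (adjusted p = 2.22e-06). Of this sum 43.7% came from the start peak and the rest from peaks in introns of Pxn. Those 20596, 15870 and 15515 bp before the start had 0.31, 0.02 and 1.74 in FPC and 0.54, -0.14 and 1.58 in CDAHFD. The Rplp0 calls held in all 17 alternatives in each diet, start peaks alone among them. Rplp2 rose by 0.45 ± 0.09 in FPC and 0.21 ± 0.09 in CDAHFD (adjusted p = 0.0355, and 0.0577 to 0.151 without any 1 of CDAHFD control replicates 1, 3 and 4 and the 3 advanced CDAHFD libraries). That CDAHFD call held in 5 of 16 alternatives, and was also lost with DESeq2 (adjusted p = 0.0738), cyclic loess (0.0512), counts rounded down (0.0566), start peaks alone (0.15) and the compared groups alone (0.0823). Rplp1 had 0.11 ± 0.11 and -0.13 ± 0.10, neither called. Rpsa, also known as a laminin receptor, rose by 0.41 ± 0.10 and 0.29 ± 0.09 (adjusted p = 0.00781 in CDAHFD, and 0.0836 without advanced CDAHFD replicate 2). A list of 4 members, not meant as complete, was taken for proteins that bind and inhibit the ubiquitin ligase Mdm2 when ribosome assembly fails. Of these, Rpl5 (0.50 ± 0.08 in FPC, 0.57 ± 0.07 in CDAHFD, and on start peaks alone 0.23 in FPC with adjusted p = 0.096), Rpl23 (0.53 ± 0.09, 0.29 ± 0.09) and Rps7 (0.35 ± 0.09, 0.48 ± 0.09) rose, and the sum of Rpl11 fell (-0.30 ± 0.07, -0.27 ± 0.07). On start peaks alone Rpl11 had the opposite direction, 0.30 in FPC (edgeR adjusted p = 0.0134) and 0.20 in CDAHFD (adjusted p = 0.069). Of 16 measured members that are mutated in Diamond-Blackfan anaemia in humans, 9 were higher and 2 lower in FPC, and 8 higher and 3 lower in CDAHFD. Of all genes 32.2% were higher and 28.8% lower in FPC, and 30.1% and 27.9% in CDAHFD. The median log2 fold changes of the 16, 0.19 in FPC and 0.18 in CDAHFD, were near those of all members, 0.19 and 0.17.

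Among small-subunit genes the 2 diets parted at Rps12, whose fly counterpart is needed for competition between cells. Its only peak, chr10:23787232-23787432, is centred 123 bp before the start and inside the window printed above. Its sum was 45.5, 48.8 and 41.5 CPM in advanced FPC against 43.2, 42.3, 54.6 and 48.8 CPM in FPC control livers, and 51.4, 57.9 and 54.5 CPM in advanced CDAHFD against 38.7, 32.9, 28.7 and 30.1 CPM in CDAHFD control livers. The FPC groups overlapped and the CDAHFD groups stood apart. The log2 fold change was -0.07 ± 0.10 (adjusted p = 0.528) in FPC and 0.74 ± 0.09 (adjusted p = 2.03e-07) in CDAHFD, and the difference of the changes, FPC minus CDAHFD, was -0.81 ± 0.13 (adjusted p = 0.00101). The controls differed as well: FPC control livers, on low fat diet for 20 weeks, were 0.55 ± 0.09 higher than CDAHFD control livers after 7 weeks (adjusted p = 0.000819). Every advanced FPC and FPC control library lay above the CDAHFD control livers. In mild livers it was 44.2, 44.6, 45.3 and 39.1 CPM with FPC and 47.7, 48.4, 49.0 and 45.9 CPM with CDAHFD.

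Only 1 other member had a called difference between the diets, where 1.9% of all genes were called higher and 2.95% lower in FPC minus CDAHFD. Rpl7, a large-subunit protein, was 44.0, 41.6 and 47.7 CPM in advanced FPC against 54.1, 57.7, 51.7 and 56.8 CPM in FPC control livers. It was 49.5, 50.6 and 46.5 CPM in advanced CDAHFD against 47.1, 45.7, 48.7 and 47.6 CPM in CDAHFD control livers. Every advanced FPC library lay below every FPC control library, and the CDAHFD groups overlapped. The difference was -0.35 ± 0.10 (adjusted p = 0.0376; 0.0549 to 0.102 without any 1 of FPC control replicates 2 and 4, advanced FPC replicates 1 and 2, CDAHFD control replicates 2 and 3, and advanced CDAHFD replicates 1 and 2). It also missed the threshold with DESeq2 (adjusted p = 0.0624), with the scaling factors of the peak table (adjusted p = 0.0679) and in a fit of the compared groups alone (adjusted p = 0.0719). Its 3 start peaks did not move together. The one at the start, chr1:16104317-16104517, had 0.12 ± 0.18 in FPC and 0.78 ± 0.18 in CDAHFD (adjusted p = 0.000483). Those centred 285 and 593 bp before it had -0.34 ± 0.12 and -0.35 ± 0.15 in FPC, the last named for a transcript of the neighbour Rdh10. At the level of single peaks, the start peak of Rps12 and the upstream start peak of Rps19, 549 bp before the start, differed between diets (-0.79 ± 0.13 and 0.46 ± 0.10), as did a peak of Rpl31 39428 bp past its start (-1.36 ± 0.34). That is 1 start peak higher and 1 lower, where 0.807% and 1.04% of all were, and 0 distant peaks higher and 1 lower, where 0.605% and 1.01% of all were.

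Rps10 gained most between mild and advanced disease in CDAHFD. Its sum was 61.6, 67.4 and 64.5 CPM in advanced CDAHFD against 50.8, 52.9, 50.5 and 49.3 CPM in mild CDAHFD livers, which do not overlap (0.34 ± 0.08, adjusted p = 0.00296). On start peaks alone that difference was 0.12 (adjusted p = 0.366). Against control the change was 0.26 ± 0.08 in FPC and 0.59 ± 0.08 in CDAHFD, and the difference between the diets missed the threshold (adjusted p = 0.095). A peak 2241 bp before its start was 4.59 CPM in advanced FPC against 3.84 CPM in FPC control livers (0.27 ± 0.26), and 8.22 CPM in advanced CDAHFD against 2.98 CPM in CDAHFD control livers (1.44 ± 0.22).

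**Figure D4:**
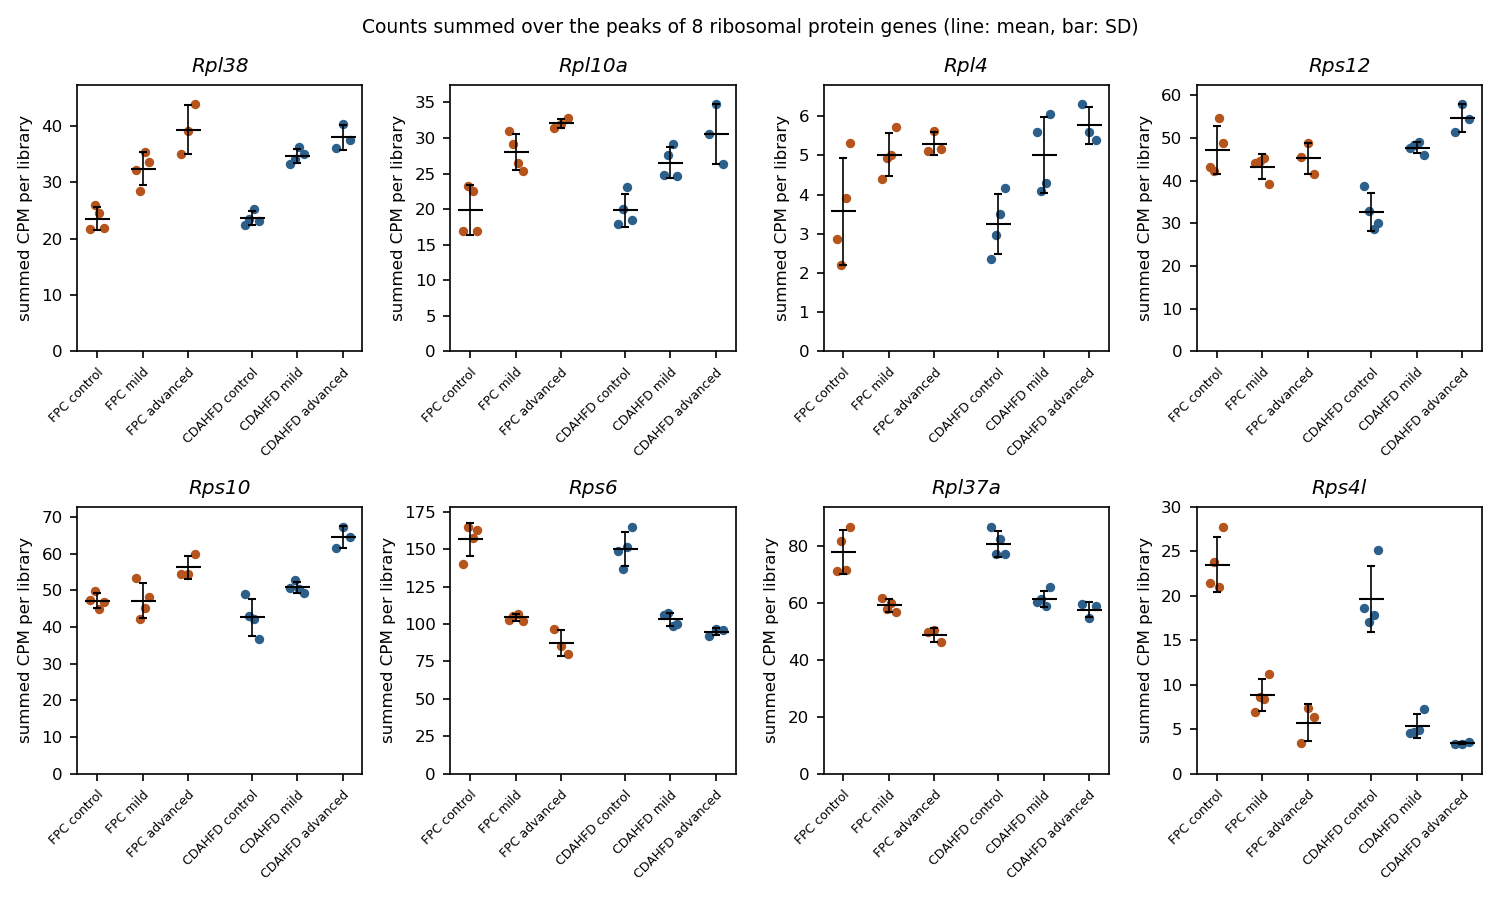
Summed CPM (y axis) of 8 ribosomal protein genes in each library (points) by group, in the order control, mild, advanced for FPC (orange) and CDAHFD (blue); lines are means and bars SD. Rpl38, Rpl10a and Rps10 end highest in advanced livers, Rps12 starts higher in FPC than in CDAHFD control livers and climbs in CDAHFD, and Rps6, Rpl37a and Rps4l drop by the mild stage.

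At several members that fell, the sum fell and the start peak did not. Rps6, the small-subunit protein phosphorylated by S6 kinase downstream of mTOR, fell most among the genes with a start peak in FPC. Its sum was 96.8, 85.4 and 79.8 CPM in advanced FPC against 141, 165, 158 and 163 CPM in FPC control livers. In advanced CDAHFD livers it was 92.3, 96.4 and 96.1 CPM, against 149, 137, 151 and 165 CPM in CDAHFD control livers, with no overlap (-0.84 ± 0.07, adjusted p = 2.29e-10, and -0.66 ± 0.07, adjusted p = 5.2e-09). Its start peak, chr4:86857317-86857517, had 35.2 CPM in advanced FPC against 31.3 CPM in FPC control livers (0.17 ± 0.09, adjusted p = 0.109) and 33.8 CPM in advanced CDAHFD against 29.1 CPM in CDAHFD control livers (0.21 ± 0.08, adjusted p = 0.0354). All 5 distant peaks, 3925 to 25266 bp past the start, fell in both diets, and 3 of them lie in introns of the neighbouring gene, which the RefSeq table gives as Dennd4c. The strongest, 11776 bp past the start, had 18.1 CPM in advanced FPC against 48.4 CPM in FPC control livers (-1.43 ± 0.11) and 23.0 CPM in advanced CDAHFD against 46.7 CPM in CDAHFD control livers (-1.02 ± 0.10). On start peaks alone, scaled on those of all genes, Rps6 had -0.011 in FPC (adjusted p = 0.932) and 0.098 in CDAHFD (adjusted p = 0.304).

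Rps4l, which RefSeq lists as a transcribed pseudogene, had no start peak, and its value came from 2 overlapping peaks, about 39 kb before its start and inside the gene Tmtc1. It was 3.41, 7.35 and 6.41 CPM in advanced FPC against 21.5, 23.8, 20.9 and 27.8 CPM in FPC control livers. It was 3.34, 3.36 and 3.60 CPM in advanced CDAHFD against 18.6, 17.0, 17.9 and 25.2 CPM in CDAHFD control livers. Every advanced library lay far below every control library (-2.00 ± 0.21 and -2.50 ± 0.22). The peaks were chr6:148315796-148315996 and chr6:148315653-148315853, which overlap and so are not independent.

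Rpl37a, a large-subunit zinc finger protein, had 49.8, 50.4 and 46.1 CPM in advanced FPC against 71.3, 81.9, 71.6 and 86.9 CPM in FPC control livers. Advanced CDAHFD livers had 59.6, 54.7 and 58.8 CPM, against 86.6, 77.1, 82.6 and 77.3 CPM in CDAHFD control livers. No advanced library reached a control library, and it fell by 0.67 ± 0.07 in FPC and 0.49 ± 0.07 in CDAHFD on the log2 scale. Its start peak had 0.16 ± 0.14 and 0.06 ± 0.13, neither called, and on start peaks alone it had -0.018 (adjusted p = 0.948) and -0.051 (adjusted p = 0.743). The largest drop of any member peak was at chr1:72759825-72760025, 48665 bp past its start and between genes, with 0.842 CPM in advanced FPC against 9.28 CPM in FPC control livers (-3.45 ± 0.36) and 0.685 CPM in advanced CDAHFD against 7.08 CPM in CDAHFD control livers (-3.29 ± 0.35).

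Rpl11, a large-subunit protein of the central protuberance, had 80.1, 66.0 and 68.0 CPM in advanced FPC against 93.9, 85.9, 85.7 and 86.1 CPM in FPC control livers. The advanced CDAHFD livers had 72.5, 75.7 and 69.9 CPM, against 94.3, 84.1, 88.1 and 82.8 CPM in CDAHFD control livers, with no overlap in either diet. Its start peak rose by 0.48 ± 0.11 and 0.31 ± 0.10, and of its 5 distant peaks 4 had negative changes in both diets. On start peaks alone, scaled on those of all genes, Rpl11 had 0.30 in FPC (adjusted p = 0.0134) and 0.20 in CDAHFD (adjusted p = 0.069), the opposite direction to its sum. The sum of Rpl32l, with 6 peaks, none at the start, fell in FPC (-0.38 ± 0.09) and had -0.11 ± 0.08 in CDAHFD. Its peaks lie in introns of Map7, 12176 to 35012 bp past the Rpl32l start, and did not move together. Their log2 fold changes ran from -0.96 to 0.52 in FPC and from -0.57 to 0.67 in CDAHFD.

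Start peaks fell at few members. Rps23, which sits at the decoding centre, summed to 64.0, 66.8 and 68.0 CPM in advanced FPC against 99.6, 98.5, 97.8 and 94.3 CPM in FPC control livers. It was 70.9, 63.1 and 67.8 CPM in advanced CDAHFD against 79.6, 86.4, 79.5 and 86.4 CPM in CDAHFD control livers. Neither diet's groups overlapped (-0.56 ± 0.06 and -0.30 ± 0.06). It had 35.0 CPM in advanced FPC against 51.1 CPM in FPC control livers in the start peak centred 311 bp upstream (-0.55 ± 0.08, adjusted p = 2.33e-06) and 33.6 CPM in advanced CDAHFD against 44.1 CPM in CDAHFD control livers (-0.38 ± 0.08). Its other start peak, centred 20 bp past the start, had -0.07 ± 0.14 and 0.17 ± 0.13. Rps4x, the X-linked gene of a core small-subunit protein, fell by 0.52 ± 0.12 in FPC and 0.45 ± 0.12 in CDAHFD, with an intron peak 2163 bp past the start at lower level (-0.92 ± 0.24 and -0.84 ± 0.23), while its start peak had -0.17 ± 0.15 and -0.20 ± 0.14 in the fit of all peaks. On start peaks alone, scaled on those of all genes, Rps4x was called lower in both diets (-0.35, adjusted p = 0.0349, in FPC and -0.31, adjusted p = 0.037, in CDAHFD). The opposite pattern was at Rps27a, which encodes a ubiquitin fused to a small-subunit protein: its start peak had 0.03 ± 0.08 and -0.18 ± 0.08, neither called. A peak 24795 bp before the start, at chr11:29572735-29572935 in an intron of Clhc1, had the largest gain of any member peak, 6.03 CPM in advanced FPC against 1.25 CPM in FPC control livers (2.26 ± 0.30) and 5.82 CPM in advanced CDAHFD against 1.25 CPM in CDAHFD control livers (2.20 ± 0.26).

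**Figure D5:**
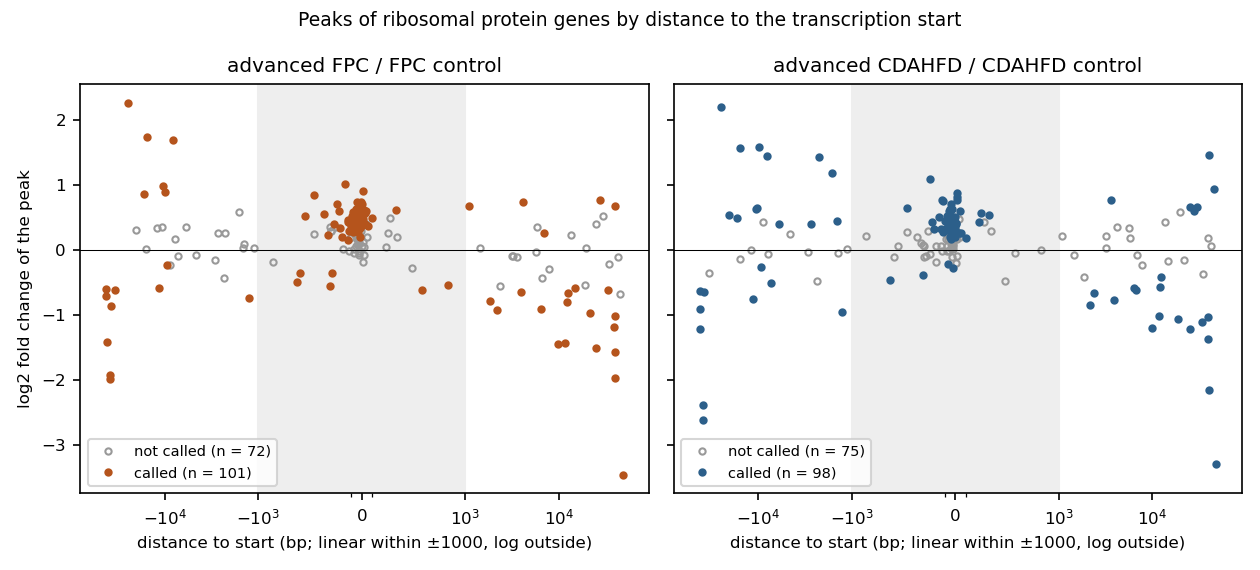
Log2 fold change over control (y axis) of the 173 member peaks by distance to the transcription start (x axis, bp, linear within 1 kb and log outside; grey band within 1 kb) in advanced FPC (left) and advanced CDAHFD (right); filled points are called. The called points crowd above 0 near the start and spread on both sides of 0 away from it, from -3.45 to 2.26 in FPC.

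Of the 72 distant peaks, 30 lay inside another gene, 35 between genes and 7 in the member itself. In advanced FPC livers 15 of the 30 were lower and 4 higher, 10 of the 35 lower and 6 higher, and 2 of the 7 lower and 1 higher. In advanced CDAHFD livers 12 of the 30 were lower and 7 higher, 11 of the 35 lower and 11 higher, and 3 of the 7 lower and 1 higher. Of all distant peaks 32.7% were lower in each diet, and 23.4% were higher in FPC and 25.4% in CDAHFD. Start peaks can be shared too: 6 members (Rpl12, Rpl22, Rpl35a, Rpl9, Rps10 and Rps13) have the start of another gene within 1 kb of a start peak. In the authors' annotation 10 start peaks of 8 members carry another gene's transcript. At Rpl17, Rpl23 and Rpl37 that transcript is a small nucleolar RNA (Snord58b, Snora21 and Snord72). Those members hold small nucleolar RNA genes themselves, so these peaks need not be shared with a neighbour. Peaks near ribosomal protein genes were also credited to neighbours. This was found, after values were seen, for 8 such genes with a peak inside or within 1 kb of the gene. They are Rpl15, Rpl18, Rpl3l, Rpl7a, Rps2 and Rps27, which are no members, and Rps18 and Rps28. For the genes that are no members, whether such a peak lies at the gene's own start was not checked. The peak near Rps18 that is credited to Vps52 had 0.67 ± 0.11 in FPC and 0.36 ± 0.10 in CDAHFD, while Rps18 itself, read from 1 peak in its intron, had -0.03 ± 0.16 and -0.11 ± 0.14.

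Small nucleolar RNAs guide modification of ribosomal RNA and are processed from introns of many ribosomal protein genes. RefSeq places 52 of them inside 27 members, a split looked up after values were seen. Of these 27, 16 were higher and 0 lower in advanced FPC livers, with a median of 0.36, and 15 were higher and 1 lower in advanced CDAHFD livers, with a median of 0.27. Of the other 47, 19 were higher and 10 lower in FPC, with a median of 0.13, and 16 higher and 8 lower in CDAHFD, with a median of 0.08. Of all genes 32.2% were higher and 28.8% lower in FPC, and 30.1% higher and 27.9% lower in CDAHFD. The split also follows the kind of peaks. Most hosts had start peaks only, while most other members held distant peaks, among them the 4 without a start peak. Of the 40 members with start peaks only, 21 were higher and 1 lower in FPC, and 20 higher and 1 lower in CDAHFD. No share over all genes with start peaks only was computed to set beside these counts. Of the single start peaks of all genes, 37.7% were higher and 12.5% lower in FPC, and 31.2% and 13.8% in CDAHFD. The part of peak kind in the difference between hosts and other members was not tested.

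Fewer members were called in mild than in advanced livers of each diet. In mild FPC livers 21 members were higher and 7 lower than in FPC control, where 21.1% and 18.7% of all genes were, and in mild CDAHFD livers 26 were higher and 8 lower, where 23.8% and 20.9% of all genes were. The advanced and mild livers share their controls. Of the start peaks, 29 were higher and 2 lower in mild FPC (16.9% and 7.09% of those of all genes), and 31 were higher and 6 lower in mild CDAHFD (22.7% and 9.28%). Of the distant peaks, 8 were higher and 14 lower in mild FPC (15% and 14.3%), and 10 were higher and 17 lower in mild CDAHFD (21.1% and 21.3%). Over FPC control, mild FPC and advanced FPC livers, Rps6 averaged 157, 104 and 87.3 CPM and Rpl38 averaged 23.5, 32.4 and 39.3 CPM. Over CDAHFD control, mild CDAHFD and advanced CDAHFD livers, Rps6 averaged 150.4, 103 and 94.9 CPM and Rpl38 averaged 23.6, 34.6 and 37.9 CPM. Rps4l averaged 23.5, 8.81 and 5.72 CPM over the FPC stages and 19.7, 5.35 and 3.44 CPM over the CDAHFD stages. Rpl11 had 0.13 ± 0.06 in mild against control FPC livers (not called), and was lower in advanced than in mild FPC livers (-0.43 ± 0.07).

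Between advanced and mild livers, 10 members were higher and 7 lower in FPC, where 15.6% and 15.8% of all genes were, and 2 were higher (Rps10 and Rpl13a) and 1 lower in CDAHFD, where 9.56% and 7.69% were. The 10 higher in FPC were 5 to 8 with any 1 library left out (5 without mild FPC replicate 2, advanced FPC replicate 2 or advanced FPC replicate 3, and 6 without mild FPC replicate 3 or 4), 6 with cyclic loess scaling and 0 on start peaks alone. Start peaks were higher at 8 and lower at 1 in FPC (14.4% and 4.59% of all, with 19 member peaks higher under RLE size factors), and higher at 3 and lower at 0 in CDAHFD (5.58% and 2.48%). Distant peaks were higher at 6 and lower at 12 in FPC (14.1% and 18.4%), and at 5 and 5 in CDAHFD (10.5% and 9.28%). The largest FPC gains were at Rpl26 (0.40 ± 0.14, adjusted p = 0.0285, and 0.0508 to 0.159 without any 1 of mild FPC replicates 2 and 4 and advanced FPC replicates 2 and 3) and Rpl21 (0.34 ± 0.08, and on start peaks alone 0.13 with adjusted p = 0.272). The CDAHFD call of Rpl13a (adjusted p = 0.0403) was lost without any 1 of mild CDAHFD replicates 1, 2 and 3 and advanced CDAHFD replicates 2 and 3 (0.0519 to 0.154). Between the control groups, 2 members were higher in FPC control (Rps12 and Rps23, 0.24 ± 0.06) and 3 lower (Rpl22, -0.34; Rpl27a, -0.25; Rps19, -0.22), where 3.77% and 2.24% of all genes were called. Among start peaks 1 was higher and 3 lower (2.83% and 0.727% of all), and among distant peaks 1 was higher and 0 lower (1.77% and 0.654%). The call of Rps19 was lost without any 1 of FPC control replicates 2 and 3 and CDAHFD control replicates 1 and 3 (adjusted p 0.0507 to 0.138), and that of Rpl27a without FPC control replicate 3 (adjusted p 0.0585).

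Genes that work with ribosomes, taken from lists of their own, gave these counts in advanced FPC and advanced CDAHFD livers. Beside them, 32.2% of all genes were higher and 28.8% lower in FPC, and 30.1% higher and 27.9% lower in CDAHFD. Of 9 elongation factor genes, 4 were higher and 1 lower in FPC and 3 higher and 1 lower in CDAHFD, with Eef1g, a subunit of the exchange factor that recharges elongation factor 1A, at 0.44 ± 0.08 and 0.52 ± 0.07. Of 34 initiation factor genes, 15 were higher and 3 lower in FPC and 14 higher and 3 lower in CDAHFD. Among these, Eif2s1, the alpha subunit whose phosphorylation slows translation in stress, had 1.11 ± 0.13 and 1.12 ± 0.11. Of 19 RNA polymerase I genes, 7 were higher and 4 lower in FPC and 6 higher and 3 lower in CDAHFD, with Ubtf, which binds ribosomal DNA, at 0.56 ± 0.08 and 0.59 ± 0.08. Of 48 ribosome biogenesis genes, 18 were higher and 9 lower in FPC and 12 higher and 7 lower in CDAHFD, with Nop16 at -1.26 ± 0.19 and -1.08 ± 0.17. Of 22 genes of growth signalling, 10 were higher and 5 lower in FPC and 11 higher and 4 lower in CDAHFD, with the stress-induced inhibitor Sesn1 at -0.52 ± 0.08 and -0.51 ± 0.08. Of 6 ribosomal proteins whose names lie outside the rule, 4 were higher and 1 lower in FPC, and 1 higher and 0 lower in CDAHFD. Of 70 mitochondrial ribosomal protein genes, 19 were higher and 11 lower in FPC and 22 higher and 12 lower in CDAHFD, and of 36 proteasome genes 15 were higher and 6 lower in FPC and 10 higher and 7 lower in CDAHFD. The share of mitochondrial ribosomal protein genes called higher lay near or below that of all genes in both diets. In CDAHFD the same held for the RNA polymerase I, ribosome biogenesis and proteasome genes. In each of these lists the share called lower lay below that of all genes in both diets, as it did for the members. Initiation factor genes were also called higher more often than all genes in both diets, as the members were.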

How the data were processed

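The 22 ATAC-seq libraries were made from 25000 nuclei each with 12 PCR cycles, per the labels' protocols. HOMER, DESeq2, SAMtools and BWA (0.7.5a-r405), with build mm10, are named per the submitters' processing notes; their roles are not known here. The authors deposited expected counts per peak in steps of 0.5 (47.8% of values end in a fraction); the annotation, distances and nearest genes are the authors'. Their normalized table was not used. Here the counts were summed per gene over peaks within 50 kb of its start, rounded, and scaled by TMM (factors 0.984 to 1.02). edgeR 4.0.16 (quasi-likelihood test, all 22 libraries in 6 groups, no covariate, filterByExpr, which kept all 15686 genes and 68827 peaks) gave log2 fold changes, their SE and Benjamini-Hochberg adjusted p-values; peaks were fitted apart. CPM values are on the scale of the table used, genes or peaks. Alternatives were RLE factors, cyclic loess (limma 3.58.1), DESeq2 1.42.0, a filter on low values, start peaks or distant peaks alone, counts rounded down, a fit of the compared groups alone, each library left out, and, added after seeing the data, the peak table's factors. The code was tested on simulated data. The 3 or 4 libraries per group, of 3785070 to 9328960 counts, limit precision.

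Members and lists were chosen with earlier results of these data known. Named members were, in each advanced against control comparison, up to 8 called with the largest rise and 8 with the largest fall, and up to 4 and 4 elsewhere. Further ones were the 3 most and 3 least open starts, members with no start peak, the stalk, Rpsa, paralogs and the listed Mdm2 binders. Named peaks were up to 5 called start and 5 other peaks with the largest change. Of each other list up to 3 genes were named by p. Rps27a, Rps19, Rpl31 and further peaks of named members were added after their values were seen. Some results under this rule are not reported here. RefSeq (GRCm38.p6) gave promoters, hosts and names.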

Additional observations from a re-analysis of the deposited data

Results flagged for a closer look

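Among 156 groups of 4 libraries (39 named members), 14 held a library apart from the other 3 by a gap test that flags about 1 group in 20 by chance. High libraries were, in summed CPM, Rpl11 in FPC control replicate 1 (93.9, others 85.7 to 86.1), Rpl13a in FPC control replicate 4 (108, others 90.1 to 91.3), Rpl19 in mild FPC replicate 2 (21.6, others 17.1 to 17.7), Rpl21 in CDAHFD control replicate 3 (35.2, others 32.6 to 32.7) and Rpl23a in mild CDAHFD replicate 4 (29.8, others 25.9 to 26.4). Further high ones were Rpl6 in mild CDAHFD replicate 2 (25.3, others 24.1 to 24.3), Rps15a in mild FPC replicate 1 (26.2, others 22.2 to 22.7) and in CDAHFD control replicate 3 (22.1, others 17.6 to 18.3), Rps4l in mild CDAHFD replicate 4 (7.30, others 4.53 to 4.86) and Rps7 in mild FPC replicate 1 (45.6, others 41.5 to 42.0). Low libraries were Rpl11 in mild CDAHFD replicate 3 (75.9, others 83.1 to 83.6), Rpl32l in mild FPC replicate 1 (50.3, others 61.8 to 64.2), Rplp0 in mild CDAHFD replicate 2 (100.1, others 106 to 107) and Rps12 in mild FPC replicate 4 (39.1, others 44.2 to 45.3).

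The change in advanced livers differed between the diets, by the test of the difference itself, at Rps12 (-0.81, FPC minus CDAHFD on the log2 scale) and at Rpl7 (-0.35).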

How the results depend on the processing

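Leaving out 1 library at a time gave 29 to 35 members higher and 9 to 11 lower in advanced FPC livers, 25 to 32 and 8 to 10 in advanced CDAHFD, 17 to 23 and 6 to 9 in mild FPC, 18 to 26 and 7 to 9 in mild CDAHFD, 5 to 8 and 5 to 7 in advanced against mild FPC, 1 to 4 and 1 to 2 in advanced against mild CDAHFD, 0 to 0 and 1 to 3 in the difference between diets, and 2 to 3 and 1 to 5 between controls. On start peaks alone, advanced against mild FPC had 0 members higher and 1 lower, the same in CDAHFD had 1 and 0, and 4 were higher between controls. On distant peaks alone (34 members), 7 were higher in advanced FPC, 8 in advanced CDAHFD, 4 in mild FPC, 4 in mild CDAHFD and 6 in advanced against mild FPC; 3 were lower in advanced against mild CDAHFD, 0 in the difference between diets, and 0 and 0 were called between controls. Cyclic loess scaling gave 6 higher in advanced against mild FPC, and size factors of RLE type gave 19 start peaks higher there, against 8. DESeq2, a fit of the compared groups alone, and TMM factors of the peak table (added after seeing the data) each left 1 member lower in the difference between diets. The groups-only fit gave 1 higher and 2 lower in advanced against mild CDAHFD and 1 and 0 between controls. Values that changed sign on start peaks alone were Rpl27a (-0.019) and Rpl11 (0.30) in advanced FPC, Rps6 (0.10), Rpl11 (0.20), Rpl34 (-0.011) and Rplp1 (0.056) in advanced CDAHFD, Rpl37a (0.048) in mild FPC, Rps6 (0.026) in mild CDAHFD and Rpl11 (0.11) in advanced against mild FPC. On distant peaks alone they were Rps18 (0.12), Rplp1 (-0.64), Rps27l (-0.34) and Rps7 (-0.021) in advanced FPC, Rps27l (-0.57) in advanced CDAHFD, Rpl13a (-0.10) in advanced against mild CDAHFD and Rps19 (0.22) between controls. Rps18 in advanced FPC was 0.041 with the peak table's factors and -0.11 to 0.046 with 1 library left out, and Rpl32 in advanced CDAHFD was -0.0091 to 0.14. Which peaks enter the sum, and fewer libraries in the fit, are part of how those alternatives were built; the cause was not tested for the scalings and DESeq2. No paired analysis was possible because the replicate numbers follow accession order and join no libraries across groups. Of the groups, FPC control had the lowest mean depth, and how depth bears on its calls was not tested.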
